A study of Mus musculus with 8 samples.

Results

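The stromal fibroblast and matrix genes described here were 10 genes, Col1a1, Col1a2, Col3a1, Col6a1, Dcn, Lum, Pdgfra, Grem1, Foxl1 and Bmp4, of 56980 genes counted in jejunal mucosa. They were chosen by symbol, and each symbol matched 1 Ensembl gene. All 10 had at least 1 read, and 8 had enough reads to be tested, of 15986 genes tested in all. Lum and Foxl1 fell below the filter of at least 10 counts in at least 4 libraries and are given as values.

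The samples were jejunal mucosa of male mice, 4 floxed controls (FFA2 fl/fl) and 4 Adipoq-F2-KO littermates, in which Adiponectin-Cre deletes the free fatty acid receptor gene Ffar2 (FFA2) from the cells that express adiponectin. Both genotypes carried the floxed allele, were 12 weeks old when the diet began and ate a Western diet with 10% fructooligosaccharides (WD + FOS) for 2 weeks in thermoneutral housing. The Cre driver targets adipocytes, so none of the stromal cells considered here is its stated target, and the mucosa was scraped from the luminal side and holds a mixture of cell types. The study sequenced jejunum to look for intestinal changes accompanying loss of the receptor in fat.

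Fibroblasts of the lamina propria and submucosa make the fibrillar and microfibrillar collagens that hold the villus and crypt in shape, and the small proteoglycans that bind those collagen fibres. A subset of them marked by Pdgfra, which includes the Foxl1-positive telocytes, lies directly under the epithelium and secretes bone morphogenetic proteins (BMPs), which favour differentiation along the villus. Fibroblasts and muscle cells at the crypt base secrete BMP antagonists such as gremlin 1 (Grem1), which protect the stem cell zone.

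Total counts ranged from 6007654 to 21712776 per library, and 3 libraries (floxed 3, Adipoq-F2-KO 3 and Adipoq-F2-KO 4) held fewer than 10000000. Ffar2 itself was barely expressed in this tissue, at 7.27, 9.49, 4.18 and 8.51 normalized counts in floxed controls 1 to 4 and 10.3, 7.44, 12.0 and 5.64 in Adipoq-F2-KO 1 to 4, so the jejunal libraries could not show the adipocyte deletion. Here a normalized count is a read count divided by the DESeq2 size factor of its library. Adipoq, a gene of fat cells, had 59 reads in floxed 3, 27 in Adipoq-F2-KO 3 and 12 in Adipoq-F2-KO 4, and 0 to 3 reads in the other libraries. The 16 enterocyte markers, led by Apob, Sis and Anpep, took between 83269 and 89828 CPM (counts scaled to the same total) in each library. The libraries were thus epithelial in the main, as their label of jejunal mucosa says, and the stromal genes were minor transcripts.

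The promoters are shown for reference, and their part in the levels was not tested. RefSeq held a promoter, here 250 bases before to 50 bases after the start site, for 6 of the 10 genes (Col1a2, Col3a1, Col6a1, Pdgfra, Grem1 and Bmp4; assembly GRCm38.p6). Capitals mark matches to a motif, on either strand. The motifs searched were the TATA box (TATAAA), the CCAAT box, spelled as its name, the GC box (GGGCGG) and the CArG box. The 4 promoters with a match are printed 5′ to 3′ on the strand of the gene, and no match overlapped another. They lie at chr6:4505368-4505667 (plus strand), chr1:45311288-45311587 (plus strand), chr2:113758599-113758898 (minus strand) and chr14:46390620-46390919 (minus strand).
Col1a2: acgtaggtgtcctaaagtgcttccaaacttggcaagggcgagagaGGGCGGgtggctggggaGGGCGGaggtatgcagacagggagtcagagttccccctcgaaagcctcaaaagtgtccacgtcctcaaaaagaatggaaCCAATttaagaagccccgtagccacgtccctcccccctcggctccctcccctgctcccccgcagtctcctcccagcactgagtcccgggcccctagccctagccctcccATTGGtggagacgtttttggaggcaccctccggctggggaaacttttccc
Col3a1: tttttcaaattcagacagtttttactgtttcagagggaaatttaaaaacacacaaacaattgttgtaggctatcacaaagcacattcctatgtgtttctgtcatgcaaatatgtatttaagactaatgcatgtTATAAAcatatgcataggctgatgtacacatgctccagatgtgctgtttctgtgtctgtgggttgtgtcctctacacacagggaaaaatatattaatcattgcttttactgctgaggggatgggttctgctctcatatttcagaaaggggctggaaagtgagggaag
Grem1: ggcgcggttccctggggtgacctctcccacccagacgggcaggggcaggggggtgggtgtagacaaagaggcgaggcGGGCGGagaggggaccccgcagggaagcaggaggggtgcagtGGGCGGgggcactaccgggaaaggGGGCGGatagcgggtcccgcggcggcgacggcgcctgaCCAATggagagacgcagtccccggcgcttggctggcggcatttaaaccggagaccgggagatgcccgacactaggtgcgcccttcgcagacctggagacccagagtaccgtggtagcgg
Bmp4: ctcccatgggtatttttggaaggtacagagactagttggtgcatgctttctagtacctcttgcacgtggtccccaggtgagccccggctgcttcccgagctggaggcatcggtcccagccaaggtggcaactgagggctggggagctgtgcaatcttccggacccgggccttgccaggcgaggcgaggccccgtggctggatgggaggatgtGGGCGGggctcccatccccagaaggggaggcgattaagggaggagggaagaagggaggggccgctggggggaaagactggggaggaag

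The TATA box was found in 1 of the 6 promoters (Col3a1, 117 bases before the start site) and in 13.6% of all 32851 promoters of this length. The CCAAT box was found in 2 of 6 (Col1a2 and Grem1) against 37.4% of all promoters, and the GC box in 3 of 6 (Col1a2, Grem1 and Bmp4) against 35.7%. The CArG box, the element bound by serum response factor in smooth muscle genes, had no match in the 6 windows and a match in 1.63% of all promoters. The 6 promoters thus shared no single motif of those searched, and their GC content ran from 37.7% in Col3a1 to 70.7% in Grem1. With a background of 1.63%, a lack of CArG matches in 6 windows says little. Nothing about shared regulation is read from these counts.

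The fibrillar collagens gave the same picture in each of their 3 genes: a wide spread within both genotypes and no separation between them. Col3a1, the chain of type III collagen, stood at 36.3, 183, 462 and 29.4 normalized counts in floxed controls 1 to 4 and at 78.2, 174, 166 and 319.6 in Adipoq-F2-KO 1 to 4. The highest value and the 2 lowest were floxed controls, so the Adipoq-F2-KO values lay inside the floxed range. Col1a1, which encodes the α1 chain of type I collagen, read 17.0, 87.5, 178 and 11.6 in the floxed controls and 24.5, 80.0, 84.1 and 118 in the Adipoq-F2-KO mice. Col1a2, its α2 partner chain, read 22.4, 94.9, 268 and 20.1 in the floxed controls and 29.2, 84.9, 110.1 and 150.4 in the Adipoq-F2-KO mice. Both type I chains placed the 8 libraries in nearly the same order, with floxed 3 at the top and floxed 1, floxed 4 and Adipoq-F2-KO 1 at the bottom.

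Col6a1, a chain of the beaded type VI collagen that surrounds stromal cells, followed the fibrillar chains. It stood at 23.0, 135, 245 and 22.4 normalized counts in the floxed controls and at 32.4, 89.3, 100.1 and 194 in the Adipoq-F2-KO mice. The same 3 libraries were again the lowest.

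Of the 2 small leucine-rich proteoglycans, decorin was measured well and lumican poorly. Decorin (Dcn), which binds collagen fibrils and limits their thickness, stood at 13.3, 70.1, 295 and 10.1 normalized counts in the floxed controls and at 31.6, 76.9, 92.1 and 128 in the Adipoq-F2-KO mice. Lumican (Lum), a related keratan sulphate proteoglycan, had 0, 22, 34 and 1 raw reads in the floxed controls and 0, 25, 3 and 8 in the Adipoq-F2-KO mice. In 4 of the 8 libraries Lum was at or under 3 reads, the level taken here as not distinguished from absence. Floxed 3 held the most Lum reads although it was the shallowest library.

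Pdgfra, the receptor through which epithelial PDGF signals reach subepithelial fibroblasts, spanned a wider range than the collagens. It stood at 9.69, 105, 217 and 6.97 normalized counts in the floxed controls and at 18.2, 57.7, 102 and 196 in the Adipoq-F2-KO mice. Floxed 3 and Adipoq-F2-KO 4 were the 2 highest libraries, 1 from each genotype.

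The BMP antagonist and the BMP ligand did not spread alike. Grem1 stood at 7.88, 90.7, 527 and 9.29 normalized counts in the floxed controls and at 23.7, 86.2, 90.1 and 189.9 in the Adipoq-F2-KO mice, and its highest library held 66.9 times its lowest. Bmp4 stood at 6.06, 21.6, 16.7 and 3.10 in the floxed controls and at 7.89, 9.92, 18.0 and 26.3 in the Adipoq-F2-KO mice, a span of 8.5 times. Bmp4 was thus the least variable of the 8, although it rested on only 112 reads over the 8 libraries. An antisense transcript on the opposite strand, Gm15222, had 23 reads, and the strand setting of the counting was not stated, so some Bmp4 reads could belong to it.

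Foxl1, the transcription factor that marks telocytes, was at the limit of detection. It had 0, 4, 1 and 0 raw reads in the floxed controls and 1, 5, 0 and 1 in the Adipoq-F2-KO mice. No fold change is given, since 12 reads over 8 libraries cannot show one.

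**Figure D1:**
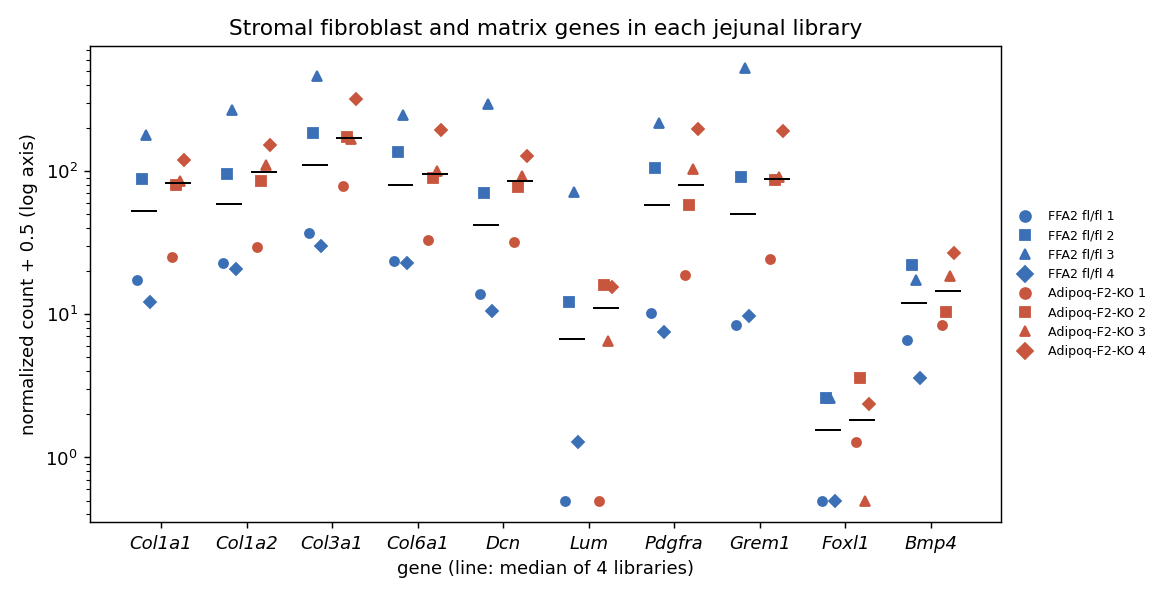
Normalized count plus 0.5 (log axis) of the 10 stromal fibroblast and matrix genes in each of the 8 libraries, floxed controls in blue and Adipoq-F2-KO in red, with the marker shape giving the sample number and a line at the median of 4. For the 8 tested genes the blue points reach from the lowest values (floxed 1 and 4) to the top (floxed 3, highest for 7 of 8), and the red points lie within that span, except for Bmp4, whose highest value is Adipoq-F2-KO 4.

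The order of the genes by level could be read only per length. Divided by the length of exons in kilobases, the mean over the 8 libraries was 30.9 normalized counts per kb for Grem1, 24.0 for Col6a1, 18.4 for Col3a1, 15.3 for Dcn, 11.4 for Col1a1, 8.88 for Pdgfra, 7.84 for Col1a2, 6.13 for Lum, 6.10 for Bmp4 and 0.461 for Foxl1. Neighbours in this order overlapped in their ranges over libraries (1.90 to 127 for Grem1 and 5.12 to 55.9 for Col6a1), apart from the last pair, Bmp4 and Foxl1. The highest Foxl1 value (1.15) lay under the lowest Bmp4 value (1.38). The order itself rested in part on floxed 3: over the other 7 libraries, again a choice made after the values were seen, Col6a1 (19.4) came before Grem1 (17.1), and Lum (2.85) came after Bmp4 (5.90) and Col1a2 (5.89).

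The genotype comparison asked whether deleting the receptor in fat was accompanied by a change in stromal transcripts of the jejunum, and none of the 8 tested genes passed the test in either direction. With DESeq2 (two-sided Wald test, Benjamini-Hochberg adjustment over all tested genes) every adjusted p of the 8 genes was 0.9998, and none had an unadjusted p below 0.05. Over all 15986 tested genes, 0.0375% passed the adjusted threshold of 0.05 and 3.03% had an unadjusted p below 0.05, so few calls would be looked for in any 8 genes. None of the 8 genes had genotypes that did not overlap, against 2.12% of all tested genes. The edgeR quasi-likelihood test also called 0 of the 8 (0.0125% of all tested genes), with none of the 8 at an unadjusted p below 0.05 (3.48% of all tested genes).

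Each fold change below divides Adipoq-F2-KO by the floxed controls and is on the log2 scale, with its standard error in brackets. Among the collagens the value was 0.07 (0.92) for Col1a1, -0.11 (0.92) for Col1a2, 0.06 (0.92) for Col3a1 and -0.03 (0.90) for Col6a1. It was -0.23 (1.05) for Dcn, 0.14 (1.15) for Pdgfra, -0.70 (1.28) for Grem1 and 0.35 (0.68) for Bmp4. The 8 genes split into 4 above 0 and 4 below, with a median of 0.01 beside -0.01 over all tested genes. All 8 were above 0 with limma-voom (median 0.82), and none was called.

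These intervals were wide, and the absence of a call did not show that the genotypes were alike. For Col1a1 the 95% interval of the fold ran from 0.302 to 3.65, and for Grem1 from 0.108 to 3.52. The narrowest was that of Bmp4, from 0.51 to 3.21. For 7 of the 8 genes the interval held both a level 3 times lower and a level 3 times higher. In bulk tissue, fewer stromal cells and less RNA per stromal cell cannot be told apart.

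A single library set the direction for several of the genes. Without floxed 3 all 8 values were above 0, from 0.52 for Bmp4 to 1.43 for Grem1, with a median of 1.09. The lowest adjusted p (DESeq2, which gave none for Bmp4) was 0.596, so no gene was called without this library either. Without Adipoq-F2-KO 4 all 8 values were below 0, with a median of -0.48.

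The variation between mice of 1 genotype was the main feature of these genes. Within genotypes the standard deviation of log2 values was 1.02 for Bmp4, the lowest of the 8, and 2.20 for Grem1, the highest. Over the 8 libraries of both genotypes together, it exceeded that of 94.6% of tested genes for Bmp4 and 99.3% for Grem1. Those tested genes were not matched for level, and Bmp4 had few reads. Among floxed controls the highest library exceeded the lowest by between 6.98 times for Bmp4 and 66.9 times for Grem1, and among Adipoq-F2-KO mice by between 3.33 times for Bmp4 and 10.8 times for Pdgfra. Floxed 1, floxed 4 and Adipoq-F2-KO 1 were the 3 lowest libraries for 8 of 8 tested genes. Adipoq-F2-KO 4 was among the top 2 for 8 of 8, and floxed 3 was the highest for 7 of 8.

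Summed over the 10 genes, stromal reads made up 11.7, 70.005, 181.6 and 9.50 CPM in floxed controls 1 to 4 and 20.5, 60.1, 62.9 and 109 in Adipoq-F2-KO 1 to 4. The 3 shallow libraries lay at 62.9 or above, and the 5 deeper ones reached from 9.50 to 70.005. Depth therefore moved with the stromal sum, but a range of several fold was present among the deeper libraries alone. The part of depth in the differences was not tested.

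The 8 genes varied together as well as strongly. Of the 28 pairs among them, 24 had a Pearson's r above 0.9 over the 8 libraries on the log2 scale. The closest pair was Grem1 and Dcn (r = 0.991) and the least close was Bmp4 and Grem1 (r = 0.837). These values describe libraries that share size factors and tissue composition, and no p is attached to them.

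Smooth muscle markers, which the muscle layers under the mucosa express, varied in the same libraries. The smooth muscle score of a library is the mean centred log2 value of 19 tested markers, including Myh11, a myosin of smooth muscle, and Flna, an actin crosslinker. It stood at -2.38, 0.86, 3.07 and -2.32 in floxed controls 1 to 4 and at -1.67, 0.82, -0.03 and 1.65 in Adipoq-F2-KO 1 to 4. The libraries poor in stromal transcripts were those poor in muscle transcripts, and floxed 3 was highest in both. The summed level of the 20 markers ran from 5047 to 44807 normalized counts in the floxed controls and from 5551 to 18464 in the Adipoq-F2-KO mice, and no marker was at 0.

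Over the 8 libraries, Pearson's r with the smooth muscle score was between 0.947 (Pdgfra) and 0.984 (Grem1) for 7 of the 8 genes, with adjusted p from 0.000347 to 0.000454 in an exact permutation test (two-sided, Benjamini-Hochberg over 8 genes). For these 7 Spearman's rho was between 0.881 and 0.976, and its adjusted p was between 0.00159 and 0.00828 in the same exact test. Bmp4 had r = 0.805 (adjusted p = 0.0195) and rho = 0.786 (adjusted p = 0.0279, exact permutation test for both). Without floxed 1 and floxed 4, the libraries farthest from the median score, the 7 genes kept an r between 0.895 and 0.980 while Bmp4 fell to r = 0.587 (exact permutation test, p = 0.235), so the relation of Bmp4 rested on those libraries. For scale, 479 of the 15986 tested genes had an r above 0.9 with the same score. The muscle list was chosen because the main axis of variation among these same 8 libraries followed it. Small p values were therefore likely in advance, and they are not read as support for a relation.

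The slopes on the score differed between the genes. Per unit of score, which is 1 log2 unit of the average muscle marker, Grem1 changed by 1.03 log2 units, Pdgfra by 0.91 and Dcn by 0.79. The 4 collagen chains lay between 0.67 and 0.69, and Bmp4 was lowest at 0.40 (standard error 0.12). The average muscle marker has a slope of 1 by construction, and Grem1 and Pdgfra lay within 1 standard error of it. The slopes were not tested against each other. Adipoq-F2-KO 3 lay above the fitted line for 8 of 8 genes, by 0.41 log2 units for Col3a1 to 1.07 for Pdgfra.

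**Figure D2:**
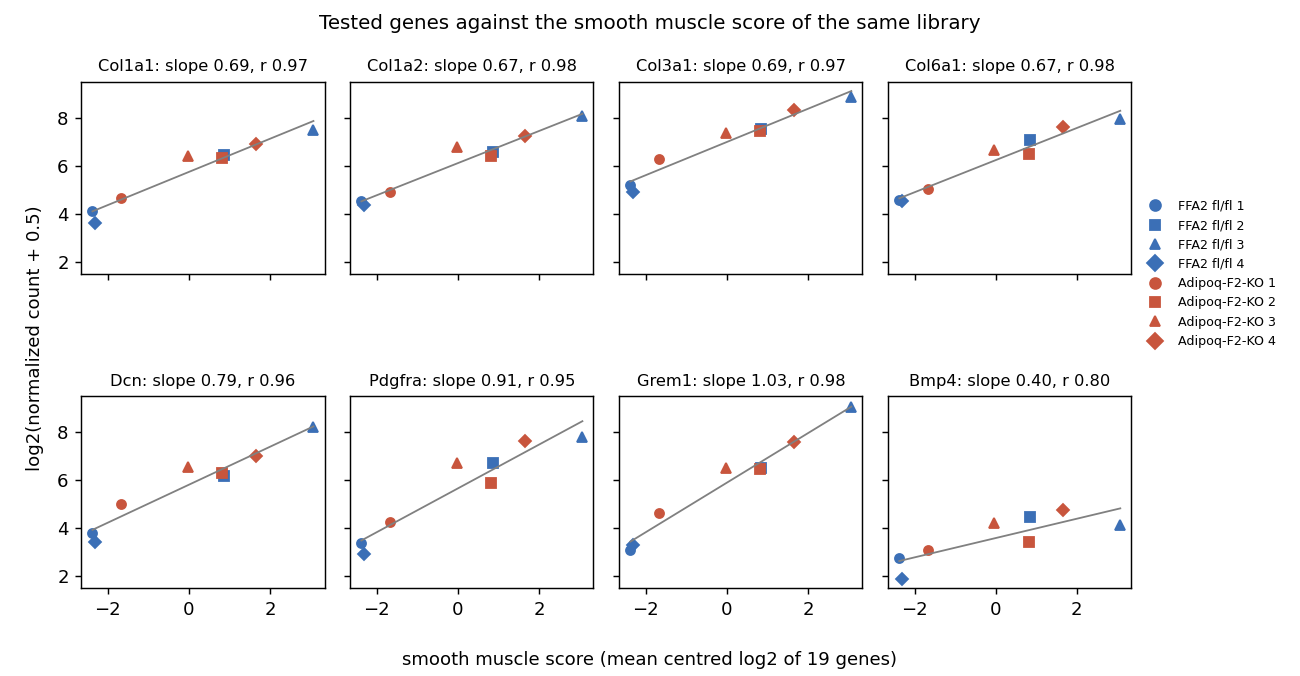
Each panel plots log2(normalized count + 0.5) of 1 tested gene against the smooth muscle score (mean centred log2 value of 19 marker genes) for the 8 libraries, with the least squares line. The points follow the line in 7 panels (r from 0.947 to 0.984), scatter more for Bmp4 (r = 0.805), and Adipoq-F2-KO 3 lies above the line in all 8.

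With the smooth muscle score as a covariate beside genotype in DESeq2, the standard errors shrank and all 8 values were above 0, with a median of 0.34. Col3a1 stood at 0.44 (standard error 0.19), Dcn at 0.48 (0.27), Col1a1 at 0.34 (0.26) and Col1a2 at 0.20 (0.24). Pdgfra stood at 0.57 (0.35), Grem1 at 0.35 (0.26), Bmp4 at 0.27 (0.51) and Col6a1 at 0.14 (0.24). Col3a1 alone had an unadjusted DESeq2 p below 0.05 (unadjusted p = 0.022 and adjusted p = 0.9997 from DESeq2). In that fit 3.19% of all tested genes had such a p and 0.0375% were called, and none of the 8 was. The score came from the same 8 libraries and overlapped between the genotypes. Its mean was -0.19 ± 2.65 in the floxed controls and 0.19 ± 1.42 in the Adipoq-F2-KO mice (SD, n = 4), and -1.28 over the floxed controls other than floxed 3.

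**Figure D3:**
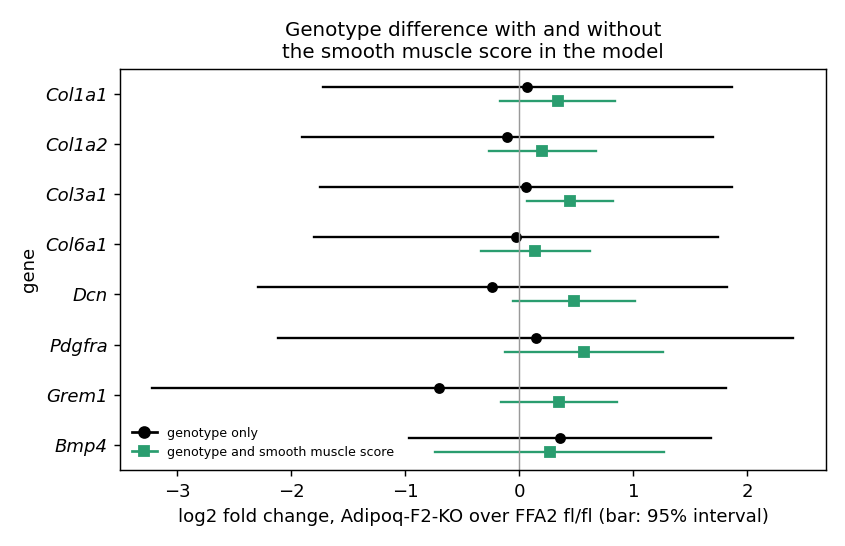
log2 fold change of each tested gene, Adipoq-F2-KO over floxed controls, with bars for the 95% interval, from DESeq2 with genotype only (black) and with the smooth muscle score added (green). The black values lie on both sides of 0 with bars that cross it, and the green values all lie above 0 with bars that cross it except for Col3a1.

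Dividing 1 gene by another in the same library removes its size factor, apart from the pseudocount of 0.5, and 4 such ratios were compared between genotypes by an exact permutation test (two-sided, smallest possible p 0.0286, adjusted over the 4). The difference in mean log2 ratio, Adipoq-F2-KO minus floxed controls, was 0.20 for Col1a1 over Col1a2 (p = 0.229 by the exact permutation test) and 0.09 for Col3a1 over Col1a1 (p = 0.60 by the exact test). It was 0.23 for Grem1 over Bmp4 (p = 0.83 by the exact test). Adjusted p was between 0.80 and 0.83 for these 3 in the exact tests, and none passed the threshold. The direction of 2 of them turned on single libraries: Grem1 over Bmp4 was at -0.38 without floxed 1, -0.02 without floxed 4 and 1.14 without floxed 3, and Col3a1 over Col1a1 at -0.03 without Adipoq-F2-KO 1. For Dcn over Lum the difference was 0.68, and -0.06 without Adipoq-F2-KO 1. Nothing is read from its test, since Lum had 0, 1, 0 and 3 reads in floxed 1, floxed 4, Adipoq-F2-KO 1 and Adipoq-F2-KO 3.

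The collagen ratios were held far more tightly than the levels. Col1a1 over Col1a2 stayed between 0.587 and 0.942 in the 8 libraries, while Col1a1 alone spanned 15.3 times, and Col3a1 over Col1a1 stayed between 1.97 and 3.15. Grem1 over Bmp4 ran from 1.28 in floxed 1 to 30.6 in floxed 3. The mean log2 ratio of Grem1 over Bmp4 was 2.19 ± 1.957 in floxed controls and 2.43 ± 0.68 in Adipoq-F2-KO mice (SD over 4 mice each).

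**Figure D4:**
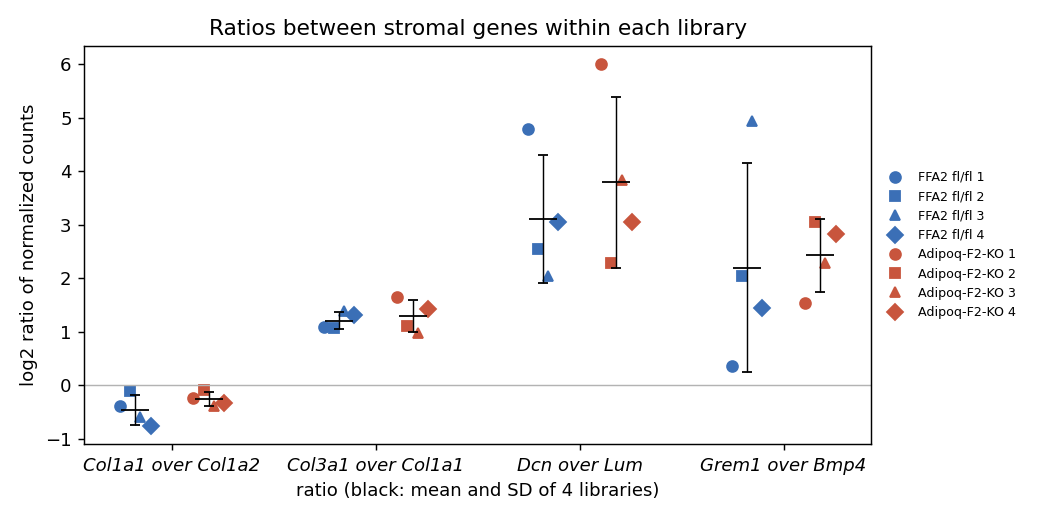
log2 ratio of normalized counts between 2 genes in the same library for 4 pairs, with a point per library and a black mean and SD of 4 libraries per genotype. The 2 collagen ratios lie in narrow bands, Grem1 over Bmp4 is spread mainly by floxed 3 and floxed 1, and the genotypes overlap for all 4.

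The 6 genes whose log2 values were most like the mean of the 8 stromal genes over the 8 libraries were Col4a1 (r = 0.997), Lmod1 (0.997), Sgce (0.996), Rbms3 (0.995), Pcdh7 (0.995) and Cxcl12 (0.995). Col4a1 encodes a chain of basement membrane collagen, Lmod1 the smooth muscle protein leiomodin 1 and Cxcl12 a chemokine of stromal cells. In the 8 libraries Cxcl12 ran from 2.32 normalized counts in floxed 4 to 56.5 in floxed 3, and Lmod1 from 1.55 in floxed 4 to 437 in floxed 3. An r above 0.9 with the stromal mean was found for 2.85% of all tested genes.

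Of 10 wider lists of matrix and stromal signalling genes, 154 of 242 genes were tested, none passed the adjusted threshold in either direction in DESeq2, and 3 (1.95%) had an unadjusted p below 0.05, a share below the 3.03% of all tested genes. By edgeR none was called either. Values were above 0 for 73 genes and below 0 for 81, with a median of -0.02. This split and the count of 0 calls depended on single libraries. Without Adipoq-F2-KO 4, 45 of 139 tested genes were above 0 (median -0.16, none called). Without floxed 3, 113 of 141 were above 0 (median 0.47), and 2 were called, Nbl1 (1.46, DESeq2 adjusted p = 0.0302) and Gsn (0.81, DESeq2 adjusted p = 0.0496). In the 5 libraries of at least 10000000 counts (floxed 1, 2 and 4 against only Adipoq-F2-KO 1 and 2) 1 was called, Bmp1 (-0.64, DESeq2 adjusted p = 0.0149). These 3 genes are named after their values were seen. With limma-voom 112 of the 154 were above 0 (median 0.21, none called). An r above 0.9 with the stromal mean was found for 57 of the 154 (37.0%).

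Among 17 other collagens 8 had an r above 0.9, led by the basement membrane chain Col4a1 and the fibrillar chain Col5a1 (0.995), and 10 had a fold change above 0 and 7 below (median 0.06; -0.22 without floxed 4 and 0.89 without floxed 3). Col4a1 and Col4a2 lie head to head on opposite strands, so their counts may share reads. Col7a1, the anchoring fibril collagen at the base of epithelia, went the other way (r = -0.789). Among 31 matrix glycoproteins and elastic fibre genes 23 had an r above 0.9, including fibronectin (Fn1, 0.990), Sparc (0.991) and fibrillin 1 (Fbn1, 0.989), and 8 values were above 0 and 23 below (median -0.17). That lean turned without floxed 3 (median 0.83), with limma-voom (0.40) and with the smooth muscle covariate (0.06). Fbln1, with the highest count of the list at 3608 to 4879 normalized counts, did not vary with the stroma (r = -0.500).

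Of 7 small leucine-rich proteoglycans 4 had an r above 0.9, biglycan (Bgn, 0.974) first, with 2 values above 0 and 5 below (median -0.19, and 0.85 without floxed 3). Podn had the highest count of the list but shares its strand and locus with Scp2, a highly expressed gene, so its r of -0.369 is uncertain.

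Of 15 tested enzymes and chaperones that process collagen, 2 had an r above 0.9 with the stromal mean (13.3%, against 2.85% of all tested genes), the collagen chaperone Serpinh1 (0.965) and the lysyl hydroxylase Plod2 (0.970), and 7 values were above 0 and 8 below (median -0.02). P4hb, which also serves general protein folding, had the highest count at 30874 to 43851 normalized counts (r = -0.580). Loxl4, a lysyl oxidase, was 1 of 2 of the 154 genes whose genotypes did not overlap (2.12% of all tested genes), which is no more than that background. It stood at 27.0 ± 1.94 normalized counts in floxed controls and 18.3 ± 5.77 in Adipoq-F2-KO mice (SD, n = 4; log2 fold change -0.49, DESeq2 adjusted p = 0.9998).

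Among 12 matrix proteases and inhibitors 3 had an r above 0.9, the inhibitors Timp3 (0.986), Timp2 (0.972) and Reck (0.968), with 5 values above 0 and 7 below (median -0.01, against 0.33 without floxed 3 and 0.32 with limma-voom). Mmp9, a gelatinase of neutrophils and macrophages, was the other gene without overlap, at 6.63 ± 5.69 normalized counts in floxed controls and 18.3 ± 6.92 in Adipoq-F2-KO mice (SD, n = 4). Mmp9 rested on only 0 to 28.2 normalized counts per library. It differed by 1.28 on the log2 scale (0.63; from DESeq2, unadjusted p = 0.0418 and adjusted p = 0.9998), and its r with the stromal mean was -0.208. Mmp2, a gelatinase of fibroblasts, had a log2 fold change of 1.09 (0.67) and an r of 0.884.

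In the BMP pathway 3 of 25 tested genes had an r above 0.9, among them the follistatin-like protein Fstl1 (0.977) and the ligand Gdf10 (0.941). Here 16 values were above 0 and 9 below (median 0.08; -0.01 without floxed 1 and 0.24 without floxed 3). The receptor Bmpr1a and the shared mediator Smad4 had the highest counts, at 1618 to 2089 and 1494 to 2295 normalized counts, with log2 fold changes of -0.09 (0.10) and 0.19 (0.14). Hhex, a homeobox gene counted here among BMP targets, had the smallest unadjusted p of the wider lists (log2 fold change 1.60 with a standard error of 0.59, unadjusted p = 0.00623 and adjusted p = 0.9998 from DESeq2). It rested on 2.42 to 22.0 normalized counts per library.

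Of 10 PDGF and Hedgehog genes, the receptor Pdgfrb (0.912), the Hedgehog transducer Smo (0.952) and the mesenchymal factor Foxf1 (0.956) had an r above 0.9. The ligands Ihh (-0.474) and Pdgfa (0.606), the Hedgehog receptor Ptch1 (0.859) and the Hedgehog effector Gli3 (0.898) did not. Ihh was at 789 ± 79.3 normalized counts in floxed controls and 792 ± 179 in Adipoq-F2-KO mice (SD, n = 4). In this list 9 values were above 0 and 1 below (median 0.14; -0.10 without Adipoq-F2-KO 4 and 0.46 without floxed 3), and none had an unadjusted p below 0.05.

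Of 5 tested Wnt and R-spondin genes, Sfrp1 (0.981), Dkk3 (0.963) and Wnt5a (0.932) had an r above 0.9, and all 5 values were below 0 (median -0.33). That direction turned without floxed 3 (median 0.80). In the TGF-beta pathway 2 of 13, the co-receptors Eng (0.953) and Tgfbr3 (0.927), had an r above 0.9, with 7 values above 0 and 6 below (median 0.09; -0.02 without Adipoq-F2-KO 4 and 0.26 without floxed 3). Eng overlaps Fpgs on the opposite strand, which had 363 reads against its 175, so its value is uncertain without the strand setting. The same holds for Timp3 (523 reads beside 233 of Syn3), Pdgfa (3089 beside 533 of 6330403L08Rik), Cd34 (133 beside 89 of Gm16897) and Dpt (139 beside 28 of Gm32569). Tgfb1 had a log2 fold change of 0.53 (0.32).

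Of 19 other fibroblast markers 6 had an r above 0.9, Cxcl12, Dpt (0.981), Cd34 (0.963), Igfbp4 (0.956), Fgfr1 (0.948) and Vim (0.946), with 9 values above 0 and 10 below. Their median was -0.02, against 0.68 without floxed 3, 0.52 with limma-voom and 0.17 with the smooth muscle covariate. Tcf21, a transcription factor of fibroblasts, stood at 1.34 on the log2 scale (0.68; from DESeq2, unadjusted p = 0.0482 and adjusted p = 0.9998), at 7.87 ± 4.85 normalized counts in floxed controls and 20.2 ± 12.3 in Adipoq-F2-KO mice (SD, n = 4). Dpp4, also an enterocyte brush border enzyme, had the highest count of the list and an r of 0.562.

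Markers of other cell types of the gut wall varied with the stroma as well. An r above 0.9 with the stromal mean was found for 15 of 19 smooth muscle markers, 3 of 6 pericyte markers (Rgs5, 0.985, first), 3 of 12 endothelial markers (among them Pecam1, 0.978), 1 of 4 markers of glia and enteric neurons (Nos1, 0.954), 1 of 6 adipocyte markers, 1 of 10 macrophage markers and 0 of 16 enterocyte markers. It was found for 0 of 3 markers of interstitial cells of Cajal, though their median r was 0.858, and for 0 of 4 mesothelial markers (median r 0.311). Between genotypes, all 19 smooth muscle markers (median -0.86) and all 6 pericyte markers (median -0.47) had a log2 fold change below 0. Of 10 macrophage markers 8 had one above 0 (median 0.54, against 0.22 without floxed 4 and 0.86 without floxed 2). None was called in these lists. The smooth muscle and pericyte directions rested on floxed 3: without it, a choice made after the values were seen, 16 of 18 smooth muscle markers (median 1.15) and 4 of 5 pericyte markers (median 0.60) were above 0. They turned with limma-voom too (medians 0.78 and 0.29), and with the smooth muscle covariate the medians were 0.04 and 0.07. Summed pericyte markers ran from 95.7 to 3915 normalized counts in the floxed controls and from 123 to 2275 in the Adipoq-F2-KO mice. The amount of deeper wall in a scraping and the make-up of the stroma itself cannot be told apart from these libraries, and the part of either in the spread of the 8 genes was not tested.

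**Figure D5:**
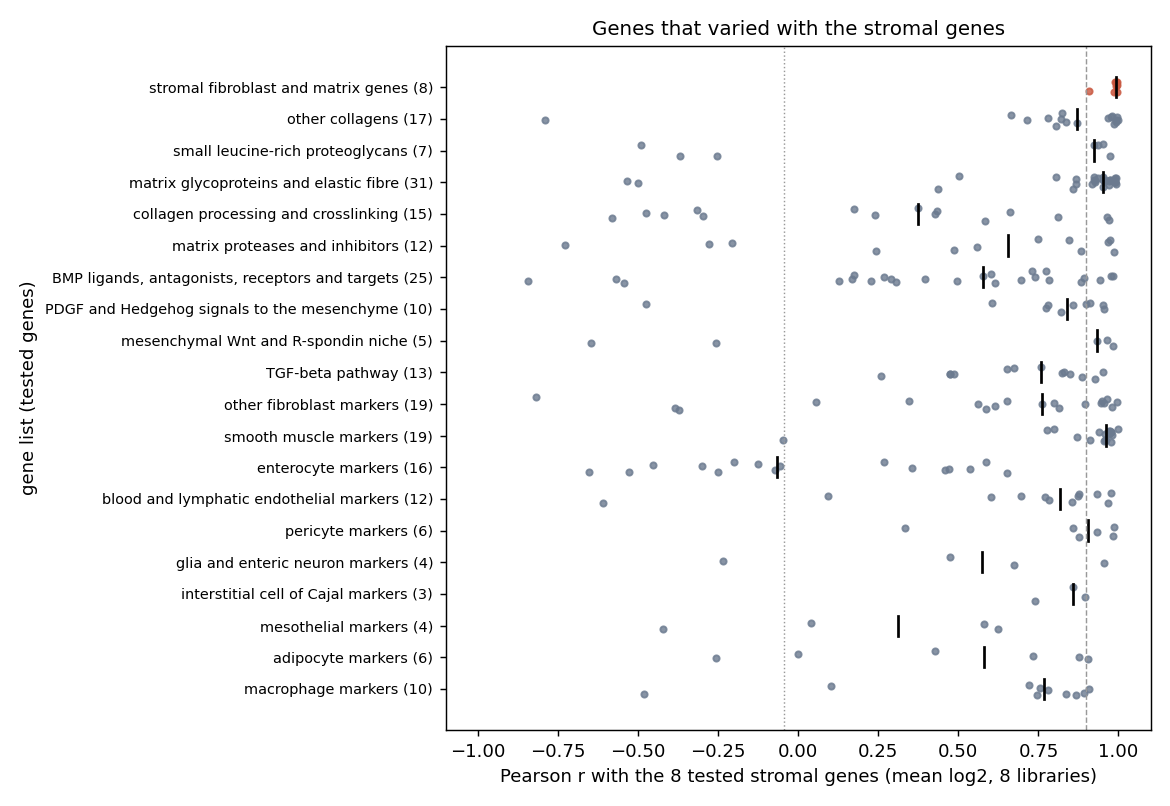
Pearson's r over the 8 libraries between each tested gene of a list and the mean log2 value of the 8 stromal genes (which the 8 themselves, in red, enter), with a bar at the median of each list, a dashed line at 0.9 and a dotted line at the median of all tested genes. Matrix, muscle and pericyte lists reach above 0.9, the enterocyte list is centred near 0, and collagen processing and BMP genes are spread between.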

How the data were processed

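RNA of jejunal mucosa from 4 FFA2 fl/fl and 4 Adipoq-F2-KO mice was sequenced (stranded poly-A libraries, single reads of 75 bp). The authors trimmed reads with Trimmomatic, aligned them with STAR (GRCm38/mm10, per the labels) and counted them with featureCounts. The deposited values are raw read counts per Ensembl gene. Versions, the annotation release and the strand setting were not given in the sources used here. Replicates were neither pooled nor normalized.

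Symbols and exon lengths came from GENCODE M21, which held 52125 of 56980 identifiers. A gene was tested when 4 or more libraries held 10 or more of its counts. DESeq2 1.42.0 (R 4.3.3; genotype as the only term, Wald test, Benjamini-Hochberg adjustment) was the main test, as in the study, with edgeR 4.0.16 and limma 3.58.1 as alternatives. Scores and ratios used log2(normalized count + 0.5). Exact permutation tests were run in scipy 1.17.1. The fitting was tested on simulated data. Within each genotype all pairs of libraries differed by more than sampling noise (chi-square per gene from 5.04 to 56.6), so none was a copy of another. This statistic cannot show that libraries come from separate mice, and each was counted as 1 replicate on the basis of its title. The floor of 3 reads covers counting error only.

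The genes and all lists were chosen with earlier results of these data known. All 10 stromal genes were named, and in each wider list the 2 most abundant tested genes, the 2 with the smallest unadjusted p and any gene called were eligible to be named. Further list genes were named for their r after values were seen. The samples are separate mice by their titles. Promoters came from RefSeq (GRCm38.p6). The result of 1 gene of the lists is not reported here.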

Additional observations from a re-analysis of the deposited data

Results flagged for a closer look

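Values of 1 floxed control stood apart from the other 3 for Grem1 and Lum. Grem1 in floxed 3 was at 527 normalized counts, with the next floxed control at 90.7, and this gap was 0.841 of the range of the 4 libraries. Lum in floxed 3 was at 71.1 normalized counts, with the next at 11.6 and a gap of 0.837 of the range. Both gaps passed the limit of Dixon's test at 95% for 4 samples. In all, 28 groups of 4 were looked at and 2 passed the limit, and chance passes about 1 in 20. Floxed 3 also had the highest smooth muscle score (3.07) and the most Adipoq reads (59), and it was the shallowest library. The part of these in the Grem1 and Lum values was not tested.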

How the results depend on the processing

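None of the 8 tested genes was called under any of the 15 alternatives, but their directions depended on the model and on single libraries. TMM factors, edgeR and the removal of the filter kept the direction of all 8. The direction of 4 genes turned with limma-voom (Col1a2 0.55, Col6a1 0.46, Dcn 1.05, Grem1 1.09) and with the smooth muscle covariate (0.20, 0.14, 0.48 and 0.35 for the same genes). In the 5 libraries of at least 10000000 counts (floxed 1, 2 and 4 against only Adipoq-F2-KO 1 and 2), 6 turned (Col1a2 0.31, Col6a1 0.012, Dcn 0.79, Grem1 0.61, Pdgfra -0.10, Bmp4 -0.22). With 1 library left out, log2 fold changes ran from -0.29 to 0.98 for Col1a1, -0.45 to 1.023 for Col1a2, -0.35 to 1.15 for Col3a1, -0.52 to 0.78 for Col6a1, -0.61 to 1.39 for Dcn, -0.52 to 1.198 for Pdgfra, -1.25 to 1.43 for Grem1 and -0.028 to 0.94 for Bmp4.

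The sample numbers in the titles gave no clear pairing: the correlation of deviations between same-numbered libraries was 0.538, 0.289, 0.0151 and -0.415 for numbers 1 to 4. The deposited names number the mice differently from the titles. Pairing by litter or cage could therefore not be checked, and the block below follows the title numbers only. With the replicate block in DESeq2, Col1a2 was at 0.37, Col6a1 at 0.31, Dcn at 0.77 and Grem1 at 0.77, all turned in direction, the 8 genes were all above 0 (median 0.57), the median of the matrix glycoproteins was 0.17, no stromal gene was called, and 11 genes were called in all.

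Without a library, the ratio differences ran from -0.38 to 1.14 for Grem1 over Bmp4, -0.031 to 0.19 for Col3a1 over Col1a1, -0.057 to 1.24 for Dcn over Lum and 0.10 to 0.32 for Col1a1 over Col1a2. The r of Col1a2 with the smooth muscle score was 0.997 in the deeper libraries, and that of Bmp4 was 0.587 without the 2 libraries farthest from the median. Over all genes, 6 were called, against 2 with edgeR, 1 with limma-voom, 3 without the filter, 81 in the deeper libraries and 1 to 108 without a library, 108 being without floxed 3. In the wider lists 1 gene was called in the deeper libraries (Bmp1, -0.64, DESeq2 adjusted p = 0.0149) and 0 to 2 without a library (Nbl1, 1.46, adjusted p = 0.0302, and Gsn, 0.81, adjusted p = 0.0496, by DESeq2 without floxed 3). The cause was not tested.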
